A study of Mus musculus with 6 samples.

Results

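The genes described here encode the proteins of the cytosolic ribosome in haematopoietic stem cells (HSCs) of mouse bone marrow. They were chosen by name alone: every array probe whose RefSeq accession maps to a symbol of the form Rpl or Rps plus a number, with Rpsa, Rplp0, Rplp1 and Rplp2, and without the Rps6 kinases and pseudogenes. The rule took 88 of 36799 genes and 176 of 55681 probes on the array. Of these genes, 45 encode core proteins of the large subunit, 31 encode core proteins of the small subunit, and 11 are paralogues or retrogenes of a core gene. The last, Rps19bp1, encodes a protein that binds Rps19 and is no ribosomal protein itself. In all, 85 of the 88 genes passed the filter on dim spots and were tested among 22630 genes. The other 3 were the paralogues Rpl3l, Rpl10l and Rpl39l, whose spots were not well above background on most arrays. No probe mapped to Rpl37 or Rps27rt.

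Each of 6 two-colour arrays carried RNA of Cdk6-/- HSCs, labelled Cy5, against a pool of sorted wild-type HSCs, labelled Cy3. On 3 arrays both the Cdk6-/- cells and the pool were untreated, and on 3 arrays both came after polyI:C, a mimic of viral RNA that sets off interferon and drives resting HSCs into the cell cycle. The series calls the 3 Cdk6-/- samples of a treatment biological replicates. Each of the 2 pools was hybridised 3 times and is 1 control sample per treatment, so its spread is technical and the tests leave out the variation between wild-type animals. Age, strain, polyI:C dose and the number of mice per sample or pool are not given in the sources used here. No array had its dyes swapped, so within a treatment genotype and dye cannot be told apart, and a constant dye bias of a probe drops out only of the difference between treatments.

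A ribosome holds 1 copy of nearly every one of these proteins, and cells make them in step. Their mRNAs typically begin with a run of pyrimidines at the very 5′ end, the terminal oligopyrimidine (TOP) tract, through which the kinase mTOR and the RNA-binding protein LARP1 control their translation. HSCs keep protein synthesis low at rest. Loss of a copy of certain ribosomal protein genes causes Diamond-Blackfan anaemia, a failure of red cell production, and free Rpl5 and Rpl11 bind Mdm2 and stabilise p53.

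The annotated start sites of 5 genes that the results below turn on are shown as 30 bases of the gene's own strand, 20 before the start and 10 from it on, from RefSeq on GRCm38.p6. Capitals mark an unbroken run of C or T that covers the start. Rps6, the only gene that passed the test, has a run of 10 (chr4:86857358-86857387, minus strand). Rps10 has a run of 13 (chr17:27635235-27635264, minus strand). Rps27 has a run of 9 (chr3:90213639-90213668, minus strand), whereas its paralogue Rps27l (chr9:66946066-66946095, plus strand) and Rps4x (chrX:102189382-102189411, minus strand) have none over the start.
Rps6: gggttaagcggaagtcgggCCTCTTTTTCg
Rps10: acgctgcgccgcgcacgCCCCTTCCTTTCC
Rps27: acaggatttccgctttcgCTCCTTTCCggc
Rps27l: cctctccactcctccccgccgcctctatcc
Rps4x: aaagtctgaggctgggcggagcaacccagg

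Rps27l has a second annotated start, also with no such run. A promoter entry was matched for 67 of the 88 genes. A run of at least 5 C or T over an annotated start, read on the gene's strand only, was found in 22 of the 67 (32.8%), against 3191 of 27025 genes with an entry (11.8%). These runs describe the annotated start and not the start used in these cells.

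Signal did not limit these genes. All 85 tested genes were well above background in both channels on all 6 arrays, and none was saturated. All 14 HSC markers tested were likewise well above background on all 6 arrays in both channels. So were all 14 granulocyte markers tested, so detection alone does not tell these cell types apart. The share of spots well above background was 47.0 to 55.7% in Cy5 and 54.4 to 58.7% in Cy3 on 5 arrays. PolyI:C array 3 stood apart with 76.5% in Cy5 and 75.6% in Cy3, and it was the only array on its slide. Most loess medians after polyI:C are therefore given with and without it, and many single genes by array. Other means and medians after polyI:C include array 3 unless stated. Because most of these genes have close processed copies in the genome, a probe may also read a near-identical gene, and values of paralogues are uncertain for that reason.

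In untreated cells 1 ribosomal protein gene was called with loess, which draws the ratios of equally bright spots towards 0. With arrays centred on their median 77 were called higher, against 21.5% of all genes and 559 of 614 other bright genes. Rps6, the small-subunit protein phosphorylated by the S6 kinases, was the only ribosomal protein gene called higher in Cdk6-/- cells with loess. No ribosomal protein gene was called lower. Untreated arrays 1, 2 and 3 gave Rps6 log2 ratios, Cdk6-/- over wild type, of 0.70, 0.62 and 0.55. The 3 values lay close together and well above 0, with a mean of 0.62 (SE 0.18, n = 3, 95% interval 0.22 to 1.03), or 1.54-fold, and limma's adjusted p was 0.0489. Across all genes tested, 3.05% were called higher and 9.93% lower in this comparison, so 1 call among 85 is no larger a share than in the rest of the array. Of 13 alternative settings 9 ended the call, among them leaving out any 1 array other than polyI:C array 3, and the lowest of its 3 probes was at -0.01.

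The 85 genes had a median log2 ratio of 0.15 in untreated cells, against -0.05 for all genes tested, and ranged from -0.34 to 0.71. Of them, 64 were above 0 and 21 below. At an unadjusted p under 0.05 there were 12, all higher, where 9.5% of all genes were higher and 19% lower. The large-subunit median was 0.15 and the small-subunit median was also 0.15. On single arrays the median was 0.17, 0.21 and 0.05, with 67, 66 and 48 of the 85 genes above 0. Ratios lay above 0 on all 3 untreated arrays for 37 genes and below 0 on all 3 for 6, where 20.9% and 28.3% of all genes did so.

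Rps4x, Rpl32 and Rpl23 were also among the genes with high means. Rps4x, the X-linked form of a small-subunit protein, was at 0.52, 0.60 and 0.76 on the 3 untreated arrays, with a mean of 0.63 (SE 0.20, adjusted p = 0.0721). Rps4x was called when polyI:C array 3 was left out of the fit, at adjusted p = 0.0249, a fit in which 4.45% of all genes were called higher.

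The lowest mean belonged to Rps27l, a paralogue of Rps27 that is induced by p53. Its ratios were -0.25, -0.27 and -0.52, all below 0, with a mean of -0.34 (SE 0.18, adjusted p = 0.251) that did not pass. Rpl19 followed with -0.26, -0.15 and -0.27 and a mean of -0.23 (SE 0.20, adjusted p = 0.498). Rps19bp1 was at -0.19, Rpl27 at -0.16 and Rps10 at -0.14. None of these 5 was below 0 when arrays were centred on their median in place of loess. That setting put all genes at a median of 0.30 and the 614 other bright genes at 1.22. Rps27l and Rps19bp1 were then at 0.27 and 0.18, below all genes. With loess the second tested probe of Rpl27 was at 0.25.

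**Figure D1:**
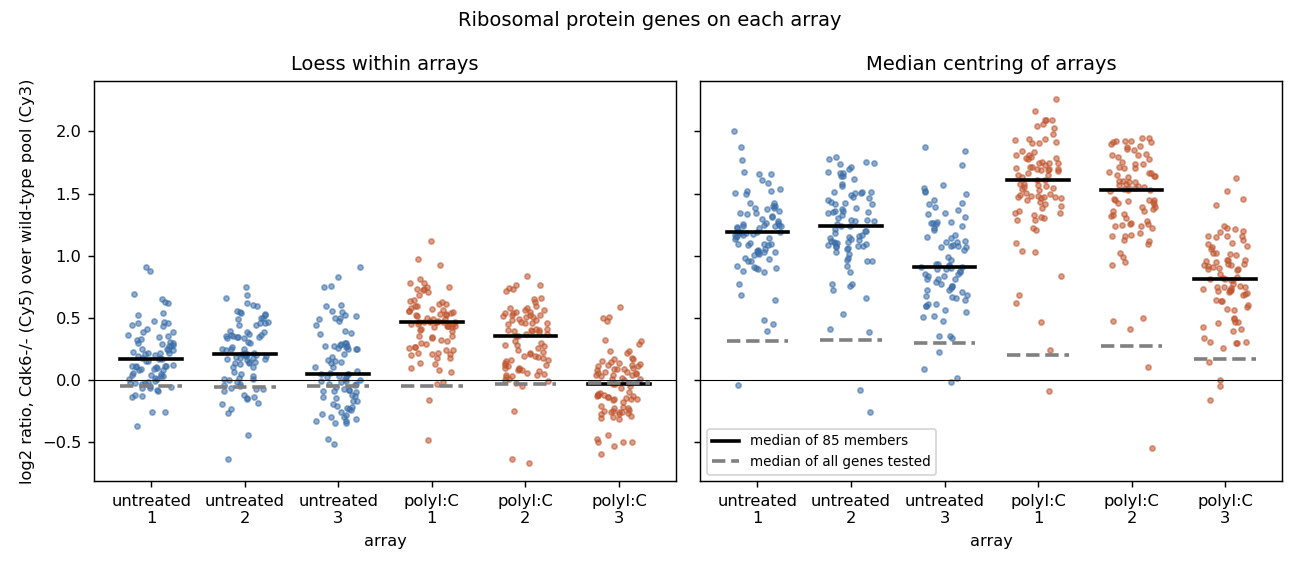
Log2 ratio of Cdk6-/- (Cy5) to the wild-type pool (Cy3) for the 85 tested ribosomal protein genes on each of 6 arrays, 1 point per gene, with loess (left) and with median centring (right); solid bars are the median of the 85 genes and dashed bars that of 22630 genes tested. With loess the medians run from -0.03 on polyI:C array 3 to 0.47 on polyI:C array 1, and with median centring from 0.81 to 1.61.

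Where these genes lay relative to the wild-type pool depended on how the arrays were normalised. With each array centred on its median, the median ratio of the 85 genes was 1.13 in untreated cells and all 85 were above 0, from 0.18 to 1.66. The median of all genes moved as well, from -0.05 to 0.30. Under that setting 77 of the 85 were called higher in untreated cells, against 21.5% of all genes. With the processed signals of the deposited value table the median was 0.07 and none was called, where 8.7% of all genes were, although 5 were higher at an unadjusted p under 0.05, against 10.7% of all genes. A loess curve refitted without the spots of these genes gave a median of 0.17 and again called Rps6 alone (adjusted p = 0.0468), with 3.11% of all genes called higher.

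Other bright spots moved in the same way. Of the 85 genes, 80 lay in the brightest of 10 equal bins of genes tested, ordered by mean intensity over both channels and all arrays. The median-centred ratio was -0.15 in the dimmest bin and 0.82 in the brightest in untreated cells, and -0.07 and 0.89 after polyI:C. Among 614 genes that were no ribosomal protein genes but had a mean log2 intensity of at least 14.38, the lower quartile of the core genes, the median-centred median was 1.22 in untreated cells. It was 1.19 for the 59 ribosomal protein genes of that brightness. Of the 614, 559 were called higher under median centring. With loess both sets had a median of 0.15.

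**Figure D2:**
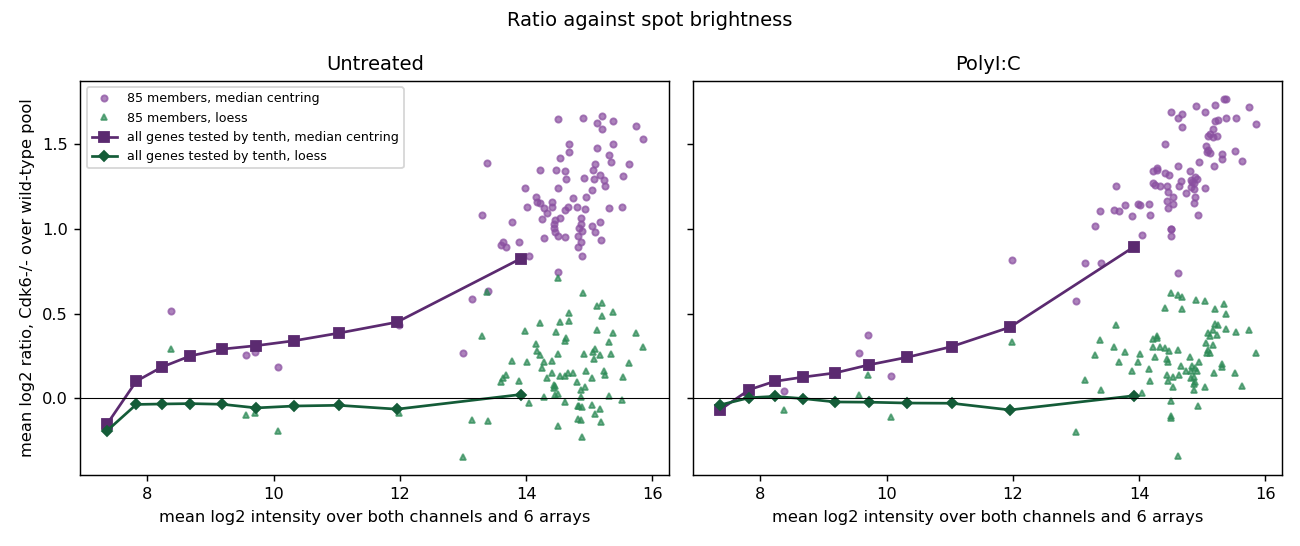
Mean log2 ratio over 3 arrays against mean log2 intensity over both channels and 6 arrays, for untreated (left) and polyI:C (right) arrays; points are the 85 ribosomal protein genes and lines join the medians of all genes tested in 10 equal bins of intensity. Median-centred medians (purple) reach 0.82 and 0.89 in the brightest bin, where 80 of the 85 genes lie, and loess medians (green) are 0.02 there in both panels.

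After polyI:C no ribosomal protein gene was called in either direction by limma, against 0.318% of all genes called higher and 0.65% lower. The median ratio of the 85 genes was 0.23, with all genes at -0.02, and 77 of 85 were above 0. At an unadjusted p under 0.05 there were 15, all higher, where 6.41% of all genes were higher and 7.01% lower. The small-subunit median was 0.28 and the large-subunit median 0.21; without polyI:C array 3 they were 0.49 and 0.36. With the processed signals the median was 0.14, none was called, where 0.146% of all genes were, and 5 were higher at an unadjusted p under 0.05, against 5.74% of all genes. With median centring it was 1.27, all genes were at 0.21, and 80 of 85 were called higher against 10.4% of all genes.

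The arrays did not agree on this median. It was 0.47 on polyI:C array 1 and 0.35 on array 2, with 81 and 78 genes above 0, but -0.03 on array 3, with 38 genes above 0. Without array 3 the mean ratios had a median of 0.37, 81 of 85 were above 0 and 39 had an unadjusted p under 0.05, 38 of them higher, where 6.08% of all genes were higher at that p. None was called, where 0.106% of all genes were called higher. The median was 0.12 without array 1 and 0.19 without array 2. The 614 bright genes of other kinds had loess medians of -0.01, 0.08 and 0.29 on the same 3 arrays, the reverse order. The median of the 85 genes minus that of these bright genes was 0.48, 0.27 and -0.32 on polyI:C arrays 1, 2 and 3, and 0.04, 0.07 and -0.13 on the untreated arrays.

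Rpl32l, Rpl17, Rps6 and Rps14 were among the genes with the highest polyI:C ratios. Rps14, a small-subunit protein of the platform beside the decoding centre, was at 0.50, 0.71 and 0.51 on the polyI:C arrays. Its array 3 value was close to the others, and its mean of 0.57 (SE 0.17, adjusted p = 0.161) had the lowest p of the 85. Rps6 was at 0.81, 0.74 and 0.18, with a mean of 0.58 (SE 0.18, adjusted p = 0.195). Rpl17 was at 0.97, 0.76 and 0.05, and Rpl32l, named as like Rpl32, at 0.78, 0.83 and 0.22.

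At the low end stood Rps3, a small-subunit protein at the mRNA entry. It was at -0.48 and -0.67 on polyI:C arrays 1 and 2 but at 0.13 on array 3, with a mean of -0.34 (SE 0.19, adjusted p = 0.491). Its second tested probe gave 0.46, the widest disagreement between probes of a gene in this comparison. Rps27l was at -0.20, Rpl29 and Rpl27 at -0.11 and Rps19bp1 at -0.11. The second tested probes of Rpl29 and Rpl27 were at 0.05 and 0.19. No gene was below 0 on all 3 polyI:C arrays, where 21.6% of all genes were, and 36 were above 0 on all 3, where 16.5% were.

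**Figure D3:**
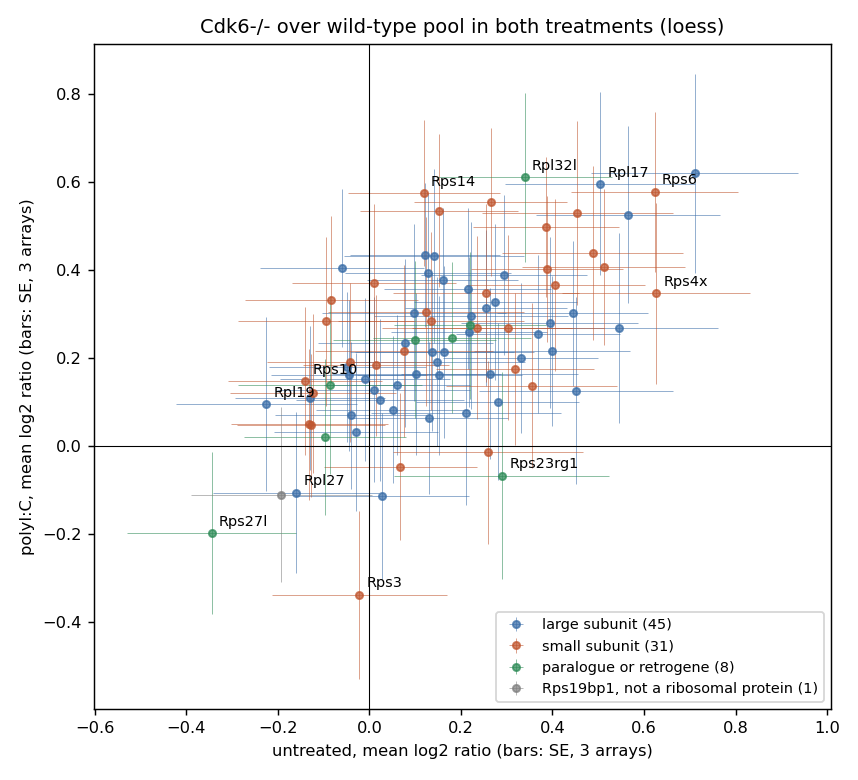
Mean log2 ratio of Cdk6-/- to wild-type pool in untreated cells (x axis) and after polyI:C (y axis) for the 85 tested ribosomal protein genes with loess; bars are the standard error of the limma fit over 3 arrays, and colours give the class. Of the 85 genes, 60 lie above 0 on both axes, 4 below 0 on both and 21 on opposite sides, and most error bars overlap their neighbours.

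The order of the genes in the 2 treatments was partly shared. Across the 85 genes the untreated and polyI:C means had a Pearson r of 0.60 and a Spearman rho of 0.57. The points share probes, dyes and dye orientation, and genes are no independent replicates, so this is given as a description. On all 6 arrays 20 genes were above 0, among them Rps6, Rplp0, Rplp2 and Rpl36a, and none was below 0; 4.86% of all genes were above 0 on all 6 and 8.52% below.

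The ratio difference, polyI:C minus untreated, asks whether the genotype effect changed with treatment, and a constant dye bias drops out of it. No ribosomal protein gene was called higher or lower by limma, where 1.6% and 0.199% of all genes were. None reached an unadjusted p under 0.05, where 16.5% of all genes did. The median difference was 0.08, with all genes at 0.04, and its sign depended on the arrays used: without polyI:C array 1 it was -0.03, without array 2 0.04 and without array 3 0.23. With median centring it was 0.17, all genes were at -0.05, and none was called, where 1.06% of all genes were. With processed signals it was 0.04 and again none was called, where 0.778% of all genes were.

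Rpl36 had the largest positive difference, with ratios of -0.14, 0.16 and -0.21 untreated and 0.54, 0.58 and 0.09 after polyI:C. The 2 groups overlapped, and the difference was 0.47 (SE 0.25, adjusted p = 0.399). For Rps14 the untreated ratios were 0.22, 0.22 and -0.08, and all 3 polyI:C ratios lay above them, with a difference of 0.46 (SE 0.24, adjusted p = 0.368). Rps19, the gene most often mutated in Diamond-Blackfan anaemia, went from 0.12, 0.11 and -0.47 to 0.45, 0.49 and 0.06, a difference of 0.42 (SE 0.27, adjusted p = 0.488). Rps21 and Rps15 both had differences of 0.38. The most negative were Rps23rg1 at -0.36, Rpl30 at -0.33, Rps3 at -0.32, and Rps4x and Rpl23 at -0.28.

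All 3 polyI:C ratios lay above all 3 untreated ratios for 7 of the 85 genes and below them for none, where 14.3% and 8.48% of all genes did so. Rpl13a, Rplp2, Rps10, Rps14 and Rps21, named after their values were seen, were among the 7. Slide 1 held untreated arrays 1 and 3 and polyI:C array 1, and slide 2 held untreated array 2 and polyI:C array 2. Without polyI:C array 3, 6 of the 85 had an unadjusted p under 0.05, where 19.6% of all genes did, and none was called, where 0.0265% were. Within slide 1 the median difference of the 85 genes was 0.32, with all genes at 0.02, and within slide 2 it was 0.10, with all genes at 0.05. With slide as a block in the fit, which then takes nothing from polyI:C array 3, the median was 0.24, 78 of 85 were above 0, 2 were higher at an unadjusted p under 0.05, against 11.1% of all genes, and none was called.

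Treatment itself was compared within the Cdk6-/- samples by their Cy5 intensity. No ribosomal protein gene was called higher or lower by limma, where 0.106% and 0.0574% of all genes were, and none reached an unadjusted p under 0.05, where 10.3% of all genes did. The median change was 0.02, with all genes at 0.03, and single genes ranged from -0.48 to 0.70. On single arrays the median log2 intensity of the 85 genes stood at 14.76, 14.81 and 14.71 without treatment, then at 14.91, 14.88 and 14.56 after polyI:C. PolyI:C array 3 was thus the lowest of the 6 and the other 2 the highest. Without array 3 the median change was 0.15, with all genes at 0.00, and with slide as a block it was 0.14. Without polyI:C array 1 or 2 it was -0.05 or -0.04, and without untreated array 1 it was -0.04.

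Rps27l had the largest positive change in level. Its log2 Cy5 intensity was 12.67, 12.63 and 12.22 in untreated and 13.28, 13.40 and 12.95 in polyI:C-treated Cdk6-/- cells, with no overlap. The change of 0.70 (SE 0.32, adjusted p = 0.496) did not pass. In the wild-type pools, 1 sample per treatment, Rps27l went from 12.92, 12.89 and 12.74 to 13.31, 13.37 and 13.54, a difference of 0.56, the highest among the 85 genes there too. Rpl27 went from 14.15, 14.11 and 14.24 to 14.77, 14.78 and 14.56 in Cdk6-/- cells (change 0.53, SE 0.29, adjusted p = 0.608) and differed by 0.48 in level between the pools in the same direction. Rpl36al, Rpl13 and Rps10 came next at 0.38, 0.36 and 0.32.

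The most negative changes in level were those of Rpl23a at -0.48, Rps4x at -0.38, Rps3a1 at -0.35, Rps7 at -0.33 and Rpl7 at -0.32, none past the threshold. Rps4x was at 13.87, 13.90 and 13.68 untreated and 13.54, 13.67 and 13.09 after polyI:C, so its groups barely separated. Rps14 was at 15.35, 15.36 and 15.26 untreated and 15.08, 15.22 and 14.99 after polyI:C. In the pools Rps14 had the most negative difference of the 85 genes, from 15.13, 15.14 and 15.34 to 14.58, 14.51 and 14.48, a difference of -0.68. Its larger ratio after polyI:C thus went with lower levels after polyI:C in both genotypes, the larger difference being that of the pool. In all, Cy5 levels after polyI:C lay above all untreated levels for Rpl12, Rpl27, Rps10 and Rps27l and below them for Rps14 and Rps4x, where 9.2% and 7.71% of all genes did so.

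**Figure D4:**
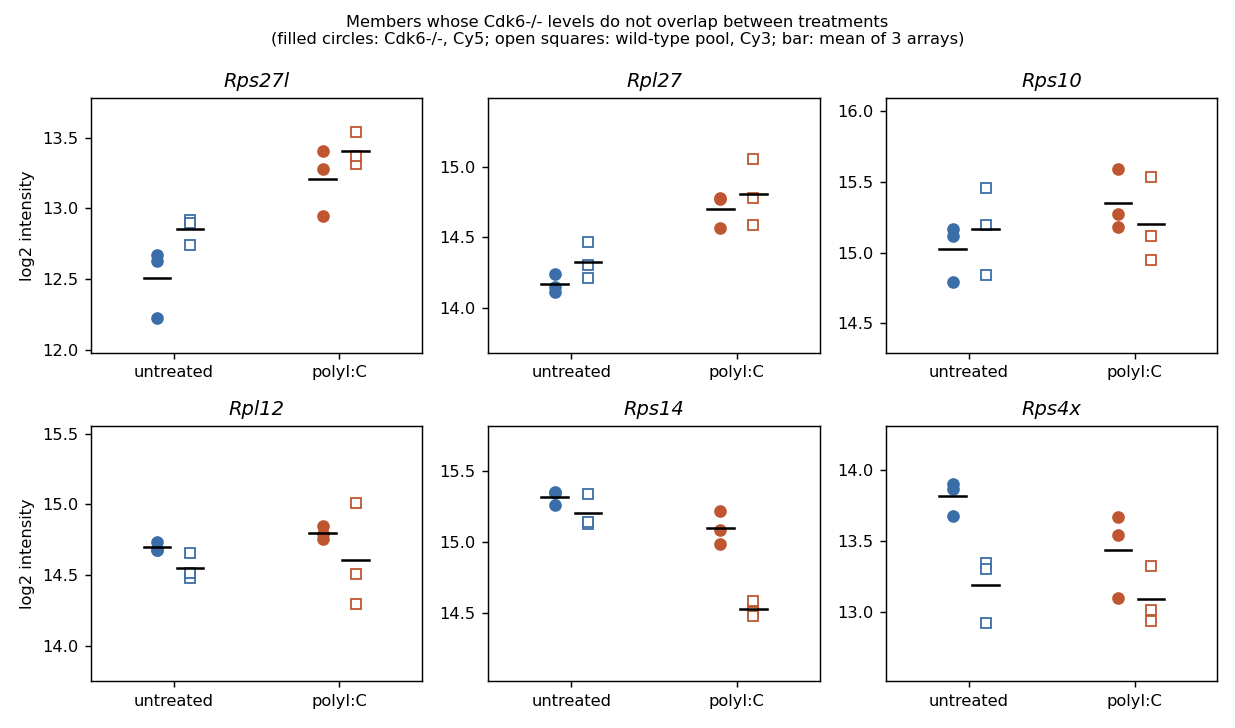
Log2 intensity on each array for the 6 ribosomal protein genes whose Cdk6-/- levels did not overlap between treatments; filled circles are Cdk6-/- samples (Cy5), open squares the wild-type pool (Cy3) on the same arrays, and bars the mean of 3 arrays. Rps27l and Rpl27 are higher after polyI:C in both channels, and Rps14 is lower in both, most so in the pool.

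Between the wild-type pools the median change of the 85 genes was -0.02, and 41 of 85 were positive. Single genes ranged from -0.68 for Rps14 to 0.56 for Rps27l. With each array's Cy3 scaled to its median, the median change was 0.19, with all genes at 0.08, and 66 were positive. These are values of 1 pool per treatment, and no test was made.

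By role, the proteins of the stalk and its base, which recruit elongation factors to the ribosome, had mean ratios above 0 in both treatments. Of all 85 genes, 64 had means above 0 untreated and 77 after polyI:C, with medians of 0.15 and 0.23. Rplp0, the base of the stalk, was at 0.23, 0.37 and 0.28 untreated and 0.73, 0.39 and 0.04 after polyI:C. Rplp1 was at 0.36, 0.66 and 0.16, then 0.47, 0.51 and -0.14. Rplp2 was at 0.16, 0.21 and 0.11, then 0.26, 0.58 and 0.29, without overlap. Rpl12, which lies at the stalk base, had means of 0.15 and 0.19 and was at -0.26 on polyI:C array 3. The medians of the 4 were 0.23 untreated and 0.33 after polyI:C, or 0.45 without polyI:C array 3, and none was called with loess.

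Neither Rpl5 nor Rpl11, the partners of 5S RNA that bind Mdm2, was called with loess. Rpl5 was at 0.25, 0.36 and 0.49 untreated and 0.34, 0.52 and -0.09 after polyI:C, with an untreated mean of 0.37 (SE 0.18, adjusted p = 0.208). Rpl11 was at 0.12, -0.15 and -0.09, then 0.26, -0.02 and -0.03, with means of -0.04 and 0.07. Its other tested probes were at 0.15 and 0.15 untreated and at 0.35 and 0.43 after polyI:C. The 18 genes known from Diamond-Blackfan anaemia had a median of 0.01 untreated, where Rps28 was highest at 0.45 and Rpl27 lowest at -0.16, and 0.20 after polyI:C, where Rps24 was highest at 0.55 and Rpl27 lowest at -0.11. Without polyI:C array 3 the latter median was 0.38. The second tested probe of Rpl27 was at 0.25 untreated and 0.19 after polyI:C. None of the 18 was called in any of the 4 comparisons with loess. With median centring 16 were called higher untreated and 18 after polyI:C, against 21.5% and 10.4% of all genes.

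Paralogues that can replace a core protein are known to differ between tissues. Of 10 on the list, 5 were tested, and none was called with loess. Rpl22l1, the paralogue of Rpl22, was at 0.17, 0.34 and 0.15 untreated and 0.47, 0.26 and 0.09 after polyI:C, all above 0. Rpl22 itself, which binds RNA and is needed for T cell development, was at 0.02, 0.20 and -0.31, then 0.18, 0.14 and -0.22. The means were 0.22 and 0.27 for Rpl22l1 and -0.03 and 0.03 for Rpl22, with an SE of 0.17 and 0.18. The second tested probe of Rpl22 was at 0.23 untreated and -0.16 after polyI:C, so the contrast depends on the probe.

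Rps27 had means of -0.04 and 0.19, against -0.34 and -0.20 for Rps27l. Rps4x had means of 0.63 and 0.35, against -0.09 and 0.14 for Rps4l. Rpl36a had means of 0.44 and 0.30, against 0.18 and 0.25 for Rpl36al. The 3 tested probes of Rpl36a ran from 0.11 to 0.67 untreated and from 0.09 to 0.48 after polyI:C, so that contrast depends on the probe. Rpl7 had means of 0.15 and 0.16, against -0.10 and 0.02 for Rpl7l1. All tested probes of Rps27 and Rpl7 lay above the values of Rps27l and Rpl7l1. The core genes Rpl3, Rpl10, Rpl26 and Rpl39, whose listed paralogues were not tested, were at 0.28, 0.26, 0.02 and 0.10 untreated. The differences between a core gene and its paralogue were not tested. Rpl32l, Rpl37rt and the retrogene Rps23rg1 had untreated means of 0.34, 0.10 and 0.29 and polyI:C means of 0.61, 0.24 and -0.07. Single arrays of Rps23rg1 ranged from -0.63 to 0.62.

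Other parts of the translation machinery can be set beside these values. Fau, whose product is cleaved to a small-subunit protein, and Rack1, a scaffold on the small subunit, had untreated ratios of -0.38 and 0.18. After polyI:C they were at 0.22 and 0.26, and neither was called with loess. Of 7 genes listed as elongation factors, Eef1a1, which delivers aminoacyl-tRNA, was at 0.86 untreated (adjusted p = 0.0566) and Eef2, which moves the ribosome along, at 0.67 (adjusted p = 0.0635). Neither passed. Eef1e1, a scaffold of the aminoacyl-tRNA synthetase complex, was lower at -0.74 (SE 0.18, adjusted p = 0.0269), a call that ended with median centring (-0.32, adjusted p = 0.311) and with processed signals (-0.78, adjusted p = 0.0527). After polyI:C the median of the 7 was -0.13, or -0.03 without array 3, and none was called with loess.

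The 37 initiation factors tested had medians of 0.13 and -0.13 and the 20 other TOP mRNAs 0.20 and 0.11, with none called in either ratio. Without polyI:C array 3 the latter medians were -0.06 and 0.16. With median centring the 20 TOP mRNAs were at 0.996 and 0.95, near the ribosomal protein genes, and the initiation factors at 0.69 and 0.41. Of the TOP mRNAs 18 and 15 were then called higher, and of the initiation factors 20 and 8. With that centring 21.5% of all genes were called higher untreated and 10.4% after polyI:C. Of 12 mTOR pathway genes, with medians of -0.08 and -0.12 by loess and 0.27 and 0.24 by median centring, none was called by loess and 2 and 0 were called higher by median centring. Larp1 was at -0.15 and -0.21, Mtor at 0.13 and -0.48, and Tsc2, which restrains mTOR, at 0.77 untreated (adjusted p = 0.0523) and -0.01 after polyI:C. Without polyI:C array 3 Mtor was at -0.14 and Tsc2 at 0.28 after polyI:C.

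Markers of other cell types differed between the channels. With loess 3.05% of all genes were called higher and 9.93% lower untreated, and 0.318% and 0.65% after polyI:C. In the treatment change of Cdk6-/- cells 0.106% were called higher and 0.0574% lower. Of 14 granulocyte markers tested, 5 were called lower in untreated Cdk6-/- cells, with a median of -0.79, and after polyI:C their median was 0.80 (0.66 without array 3) with none called. With median centring the 2 medians were 0.16 and 1.45, where all genes were at 0.30 and 0.21. The 614 other bright genes were then at 1.22 and 1.32. The untreated granulocyte median was thus above 0 but still below that of all genes. Their median Cy3 level in the pool lay between 14.72 and 14.99 untreated and between 12.79 and 12.98 after polyI:C, while their Cy5 level spanned 13.38 to 14.23 and 13.45 to 13.83. Of 11 B cell markers, 7 were called lower in untreated cells, and only 3 were well above background in Cy5 on every array. Of 8 stromal and endothelial markers, 6 were called lower in untreated cells. Medians of the B cell and stromal lists stayed below 0 in untreated cells with median centring, at -1.11 and -0.77. After polyI:C 3 of 15 erythroid markers were called lower, with a median of -0.885, and 1 of 10 monocyte markers was called higher, with a median of 0.80. Without array 3 the medians were -0.71 and 0.50, and none was called. In the treatment change of Cdk6-/- cells the 14 HSC markers had a median of -0.55 with none called. The erythroid median was -1.39 with 1 called lower, the megakaryocyte median 1.4 with 2 of 9 called higher, and the T cell and natural killer median 1.31 with 1 of 13 called higher. The part of these cells in the ribosomal protein ratios was not tested, and fewer cells of a type cannot be told apart from less RNA per cell.

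Probes of a gene did not always agree. Several probes were tested for 52 of the 85 genes. Their untreated ratios lay on opposite sides of 0 in 16 genes and their polyI:C ratios in 10. The median span between the lowest and highest probe was 0.20 untreated and 0.19 after polyI:C, about the size of the standard error. It was widest for Rpsa, the laminin-receptor-related small-subunit protein, from -0.30 to 0.39 over 4 probes in untreated cells. Fitted probe by probe, 4 of the 169 probes were called higher in untreated cells and none lower, where 3% and 9.52% of all 31802 probes tested were. These 4, named after their values were seen, belong to Rps3a1 (0.79), Rps2 (0.71), Rpl36a (0.67) and Rpl23 (0.60). The brightest probe of each of these genes was not called. In this fit the Rps6 probe behind the call by gene did not pass (0.62, limma's adjusted p = 0.0525). After polyI:C no probe was called.

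The size of effect that these arrays could miss follows from the intervals. The median SE of the 85 genes was 0.18 for each ratio, 0.26 for the ratio difference and 0.32 for the treatment change. The 95% interval reached a median of 0.40 to either side of a ratio. It lay within 1 log2 unit of 0 for 80 genes untreated, 82 after polyI:C, 82 for the difference and 66 for the treatment change. These intervals hold for loess and do not cover the shift between normalisations.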

How the data were processed

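Total RNA was pre-amplified (TransPlex WTA2) and then labelled chemically at guanine with platinum-linked dyes, per the labels' protocols. Per the file headers, Agilent Feature Extraction 11.5.1.1 quantified the arrays. The scanner output as deposited gives the median intensity of spot and background, processed signals (intensity that the software had background-subtracted and dye-normalised) and a log10 ratio of red to green, used here only to check direction. Other deposited columns flag spots as control, outlying, saturated or well above background. A value table of log2 ratios was also deposited: 100% of its values were within 0.001 of the log2 ratio of processed Cy5 to Cy3, with column medians of 0.22, 0.12, 0.20, 0.22, 0.18 and -0.04 and no centring. The authors' tests are not given in the sources used here.

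From 59305 spots per array that were not controls, flagged spots (0.657%) were dropped. Signals were corrected with normexp (offset 50) and ratios normalised by loess within arrays in limma 3.58.1 (R 4.3.3). A probe was kept if, in either group, it was well above background on all 3 arrays in Cy5 or on all 3 in Cy3, and the brightest probe stood for a gene. Genes were named through RefSeq tables (GRCm38.p6), in which 22244 of 23839 RefSeq accessions were found; probe positions were not used. One fit (lmFit, eBayes) of 6 arrays, with 4 residual degrees of freedom, gave the ratio in untreated cells, that after polyI:C and their difference. Cdk6-/- treatment was tested on log2 Cy5 after loess and quantile normalisation of average intensities (Aquantile). P-values from limma were adjusted by Benjamini-Hochberg over 22630 genes, with a threshold of 0.05. With 3 arrays against 3 the smallest exact permutation p is 0.1; the number of arrays limits the precision. The scripts were tested on simulated data. Nothing in the labels says that array numbers pair samples. Whether replicates came from separate animals is given only as the series' word for them, so p-values measure the spread between these samples.

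The genes, lists and alternatives were chosen with earlier results of these data known. Named are the 5 highest and 5 lowest genes of each comparison, the short lists (stalk, Rpl5 and Rpl11, paralogues and their core genes), any gene called in every comparison, and genes whose probes disagree in sign past the threshold (none), with exceptions marked and some genes not reported here; of the lists of anaemia genes, initiation factors and TOP mRNAs at most 4 examples. Lists of HSC and 7 other cell types served as markers. Of 15 erythroid, 13 T cell and natural killer, 10 monocyte and 9 megakaryocyte markers, 4, 1, 2 and 2 were called lower when untreated. Higher calls numbered 0, 0, 0 and 1, where 9.93% of all genes were called lower and 3.05% higher. Alternatives were median centring, processed signals, offset 16, no filter, the mean of all probes, arrays left out, slide as a block, other scalings of 1 channel and, added after seeing the data, loess fitted without these genes.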

Additional observations from a re-analysis of the deposited data

Results flagged for a closer look

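Rps10, a small-subunit protein, was the only ribosomal protein gene whose ratio lay below 0 on every untreated array (-0.05, -0.03 and -0.34) and above 0 on every polyI:C array (0.32, 0.06 and 0.06). The difference was 0.29 (SE 0.24), and limma's test of it did not pass (adjusted p = 0.599, higher on 3 of 3 arrays than on any untreated array). Within slide 1 the difference was 0.52 and within slide 2 it was 0.09. With median centring all its ratios were above 0, where all genes had medians of 0.30 untreated and 0.21 after polyI:C. How many of all genes share this pattern of signs was not counted. By the wider rule, all 3 polyI:C ratios above all 3 untreated ratios, 7 of the 85 genes passed, against 14.3% of all genes. The cause was not tested.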

How the results depend on the processing

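The number of genes called higher in untreated cells, 1 with loess, was 77 with median centring and 0 with processed signals, with offset 16, with the mean of all probes and without both arrays numbered 3. It ran from 0 to 3 when single arrays were left out; the 3 were reached without polyI:C array 3. After polyI:C, 80 were called higher with median centring in place of 0. With median centring 21.5% of all genes were called higher untreated and 10.4% after polyI:C. The medians of the ribosomal protein genes moved from 0.15 to 1.13 and from 0.23 to 1.27 with it. Those of all genes moved from -0.05 to 0.30 and from -0.02 to 0.21. The median treatment change in Cdk6-/- cells, 0.02, was 0.18 with processed signals and 0.16 with median scaling of Cy5, and that of the pools, -0.02, was 0.19 with median scaling of Cy3. Among the genes named, a sign turned together with a call only with median centring: in untreated cells Rpl19 was then at 0.84, Rpl27 at 0.75, Rps10 at 0.93, Rpl11 at 1.02, Rpl22 at 0.84 and Rps27 at 1.003, and after polyI:C Rps3 was at 0.74, Rpl29 at 0.96 and Rpl27 at 0.998. The Rps6 call (adjusted p = 0.0489) had adjusted p = 0.151 with processed signals, 0.207 with the mean of probes, 0.0672 with offset 16 and 0.0611 without both arrays 3, and from 0.0237 to 0.172 with single arrays left out. All other counts of calls were the same under every alternative run. The cause was not tested. Signal over background limited 3 paralogues only.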
